A study of Mus musculus with 8 samples.

Results

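Nadk, Ido2, Cd38, Parp8, Parp16 and Tnks were followed in mouse kidney RNA, 6 genes chosen by name out of the 35880 genes whose rows could be read. They make or use nicotinamide adenine dinucleotide (NAD), and none of them is in the study's NAD panel, a set of 10 genes drawn as a heatmap from these samples. The 10 are the different names in the study's text on that heatmap, where Slc22a12 is repeated. How the panel's genes were picked was not given in the sources used here. RNA was sequenced from kidneys of 4 control mice, labelled 1, 2, 3 and 5, and 4 cisplatin-treated mice, labelled 1, 3, 4 and 6. All 8 mice were labelled WT. According to the methods they were male C57/BL6J animals given saline or cisplatin, a platinum chemotherapy drug, by intraperitoneal injection, and kidneys were taken at 72 h. Whole kidney was used, so each value is an average over all cell types of the organ.

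NAD carries electrons in energy metabolism and is also consumed as a substrate. It is built from tryptophan through the kynurenine pathway, whose opening step is carried out by the dioxygenases IDO1, IDO2 and TDO2, or is recovered from nicotinamide and nicotinic acid. NAD kinase (NADK) adds a phosphate to make NADP, the precursor of NADPH. CD38 and its relative BST1 split NAD outside or at the surface of the cell, and the PARP family moves its ADP-ribose part onto proteins. PARP8 and PARP16 add single ADP-ribose units, PARP16 at the endoplasmic reticulum membrane. TNKS (tankyrase 1) adds chains of them, to axin and to the telomere protein TRF1 among others. The proximal tubule, the main site of cisplatin injury in the kidney, is rich in enzymes of NAD synthesis.

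Among the 6 genes only Ido2 passed the test. Its fitted level was 8.48-fold lower in cisplatin-treated kidneys. Nadk, Cd38, Parp8, Parp16 and Tnks did not pass, with fitted folds between 0.768 and 1.12. Bst1, the neighbour and relative of Cd38, was 4.38-fold higher, so that Bst1 counts exceeded Cd38 counts in every cisplatin-treated library.

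On GRCm38, Nadk (ENSMUSG00000029063) lies on the plus strand of chromosome 4 from 155562378 to 155591001. Ido2 (ENSMUSG00000031549) and Tnks (ENSMUSG00000031529) both lie on the minus strand of chromosome 8, from 24531892 to 24576333 and from 34826460 to 34965690. Cd38 (ENSMUSG00000029084) occupies 43868553 to 43912375 on the plus strand of chromosome 5, 24566 bases from Bst1. Parp8 (ENSMUSG00000021725) lies on the minus strand of chromosome 13 from 116854820 to 117025537, and Parp16 (ENSMUSG00000032392) on the plus strand of chromosome 9 from 65195353 to 65239224. Counts covered whole genes and do not separate transcripts. Tnks shares 635 exonic bases with Gm9939 on the opposite strand. The strand setting of the counting was not given in the sources used here, so reads of that stretch may belong to either gene.

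RefSeq promoter sequence (GRCm38.p6) was matched for 4 of the 6 genes. The promoters of Parp8 and Parp6 are shown because these related genes differed in their response, and those of Nadk and Parp16 because their levels varied together across libraries. Each line is the 250 bases before a transcription start, 5′ to 3′ on the gene's strand, with matches to the searched motifs in capitals. They span chr13:117025532-117025781 (minus strand) for Parp8, chr9:59617034-59617283 (plus) for Parp6, chr4:155563565-155563814 (plus) for one of the listed starts of Nadk, and chr9:65214440-65214689 (plus) for Parp16. The Parp16 window lies inside the gene as annotated above, before an internal start, and the Nadk window before the downstream of the listed starts.
Parp8: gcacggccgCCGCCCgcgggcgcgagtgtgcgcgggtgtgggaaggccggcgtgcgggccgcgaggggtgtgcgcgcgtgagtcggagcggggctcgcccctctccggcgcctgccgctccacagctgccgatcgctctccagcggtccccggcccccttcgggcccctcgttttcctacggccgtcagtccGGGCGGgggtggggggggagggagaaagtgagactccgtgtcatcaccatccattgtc
Parp6: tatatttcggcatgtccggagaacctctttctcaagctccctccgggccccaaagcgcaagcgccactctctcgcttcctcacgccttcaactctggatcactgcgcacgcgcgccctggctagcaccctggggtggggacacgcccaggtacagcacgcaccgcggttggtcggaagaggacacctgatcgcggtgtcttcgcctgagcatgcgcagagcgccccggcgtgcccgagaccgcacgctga
Nadk: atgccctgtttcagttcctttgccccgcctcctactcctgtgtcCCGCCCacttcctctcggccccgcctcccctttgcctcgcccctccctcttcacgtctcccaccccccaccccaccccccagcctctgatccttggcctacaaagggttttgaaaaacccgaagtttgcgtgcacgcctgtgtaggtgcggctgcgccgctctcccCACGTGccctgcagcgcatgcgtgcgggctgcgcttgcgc
Parp16: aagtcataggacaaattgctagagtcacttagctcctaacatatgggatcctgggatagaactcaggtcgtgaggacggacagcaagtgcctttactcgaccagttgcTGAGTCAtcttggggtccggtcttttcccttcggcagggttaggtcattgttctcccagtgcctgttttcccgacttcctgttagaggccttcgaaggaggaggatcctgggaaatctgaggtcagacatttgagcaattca
Both strands were searched for 6 motifs. The GC box, GGGCGG, was found in the Parp8 window at 2 places and in the printed Nadk window, and in 32.7% of all 32851 promoters of that length. The printed Nadk window also held the E-box CACGTG (6.02% of all promoters), and the Parp16 window held the AP-1 motif TGANTCA (6.75%). The Parp6 window held none of the 6, and neither did the window of Cd38 (48.8% GC) or that of the upstream Nadk start, chr4:155562131-155562380 (46.8% GC). The Cd38 window, chr5:43868559-43868808 (plus), also lies inside the gene as annotated above, before an internal start. The motifs searched also included TATAAA (12.4%), the cyclic AMP response element TGACGTCA (1.55%) and the interferon gamma-activated motif TTCNNNGAA (7.02%). GC content was 74.8% for Parp8, 65.2% for Parp6, 66.0% for the printed Nadk window and 50.0% for Parp16, beside a median of 52.4% over all promoters. These matches describe the letters of the windows.

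Total counts over the rows used ran from 10953338 to 16701599 per library, and 9141 genes were tested, with 1754 called up (19.2%) and 1434 called down (15.7%), or 34.9% in all. A call required an adjusted p under 0.05 together with a log2 fold change of 1 or more in size. With scaling by total count alone the split was 3174 up and 803 down, and the median log2 fold change of all genes moved from 0.08 to 0.64. The libraries fell apart on the second principal component (15.96% of the variance) into a set of 5, with control 1, 2 and 3 and cisplatin 1 and 3, and a set of 3, with control 5 and cisplatin 4 and 6. The labels name no batch. Cisplatin 1 and 3 had at most 3 counts of the Y-linked genes Kdm5d and Eif2s3y, against at least 274 in the other 6 libraries, which goes against the stated male sex for those 2. Both are in the first set, so that the absence of Y-linked counts and the first-set response to cisplatin cannot be told apart. Without them the cisplatin group holds only second-set libraries, 4 and 6, against controls 1, 2, 3 and 5. An estimate without cisplatin 1 and 3 therefore mixes the treatment with the difference between the sets. Values within the second set rest on 1 control library. The sets were defined from these same counts, and differences between them are given as values without a test.

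Levels are given as CPM, a gene's counts per 1000000 counts of its library, with TMM factors that correct for a few abundant genes, and adjusted p-values are from the edgeR quasi-likelihood test over all 9141 genes. All 6 genes passed the filter on low counts, and their lowest count in any library was 17, for Ido2.

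Ido2 encodes a tryptophan dioxygenase, a relative of IDO1 that catalyses the same step. Control levels of Ido2 were 42.9, 39.3, 33.3 and 30.8 CPM in libraries 1, 2, 3 and 5, and cisplatin levels were 1.23, 0.935, 7.98 and 7.45 CPM in libraries 1, 3, 4 and 6. Every cisplatin-treated library was below every control. Groups that do not overlap, in either direction, were found for 46.3% of all genes tested. The lowest Ido2 values were the first-set libraries, at 27 and 17 counts. The mean fell from 36.6 ± 5.51 to 4.40 ± 3.84 CPM (SD, n = 4 each). The log2 fold change was -3.08 (SE 0.64, 95% interval -4.51 to -1.66, edgeR adjusted p = 0.00309). A two-sided exact permutation test gave p = 0.0286, the smallest that 4 against 4 allows. Within the first set Ido2 was 35.6-fold lower in cisplatin-treated kidneys, and within the second 3.99-fold lower. With cisplatin 1 and 3 left out, the log2 fold change was -2.24 (edgeR adjusted p = 0.000133). Within each set Ido2 was thus lower with cisplatin, by different amounts, where the second-set value rests on 1 control.

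**Figure D1:**
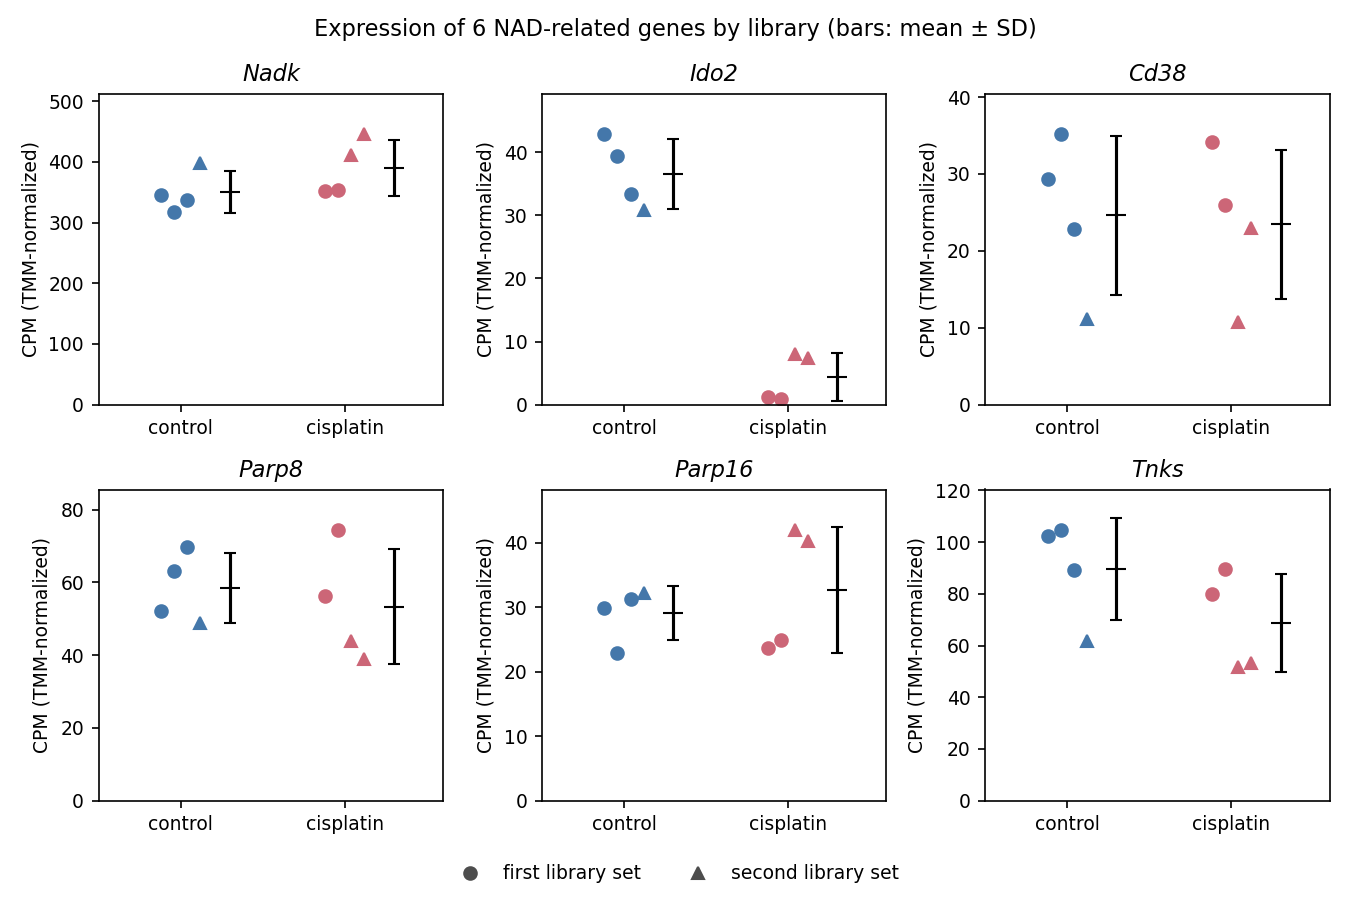
TMM-normalized CPM of the 6 NAD-related genes in each library, with circles for the first library set, triangles for the second and bars for the mean ± SD of 4 libraries. For Ido2 the 4 cisplatin-treated libraries lie between 0.935 and 7.98 CPM, below all controls, whereas the groups overlap for the other 5 genes.

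Proximal tubule markers were lower in the same libraries. All 12 listed markers, such as Lrp2, Slc34a1 and Kap, were tested and called down, with log2 fold changes from -5.83 to -1.82 and a median of -4.03. Their summed level was 59454 to 75132 CPM in controls and 1353 to 14083 CPM in cisplatin-treated kidneys, a 10.2-fold lower mean. The log2 fold change of Ido2 lay inside the range of the markers, below 2 of them (Aqp1 and Kap) and above the other 10. In whole kidney, fewer cells of a type and less RNA per cell cannot be told apart. Set against the markers within each library, a measure chosen after the values were seen, Ido2 had 65.4, 66.1, 50.6 and 41.0 counts per 100000 marker counts in control libraries 1, 2, 3 and 5. The values were 68.5, 69.1, 89.3 and 52.9 in cisplatin libraries 1, 3, 4 and 6. The groups overlapped on this measure. Its mean was 55.8 ± 12.2 in controls and 70.0 ± 14.9 with cisplatin (SD, n = 4 each; log2 difference 0.33, two-sided exact permutation p = 0.143). Kap and Slc34a1 made up 23.9 to 82.9% of the marker counts. With each marker weighted equally on the log scale, the difference was 0.72 (exact permutation p = 0.229). The part of the markers in the fall of Ido2 was not tested beyond these ratios.

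**Figure D2:**
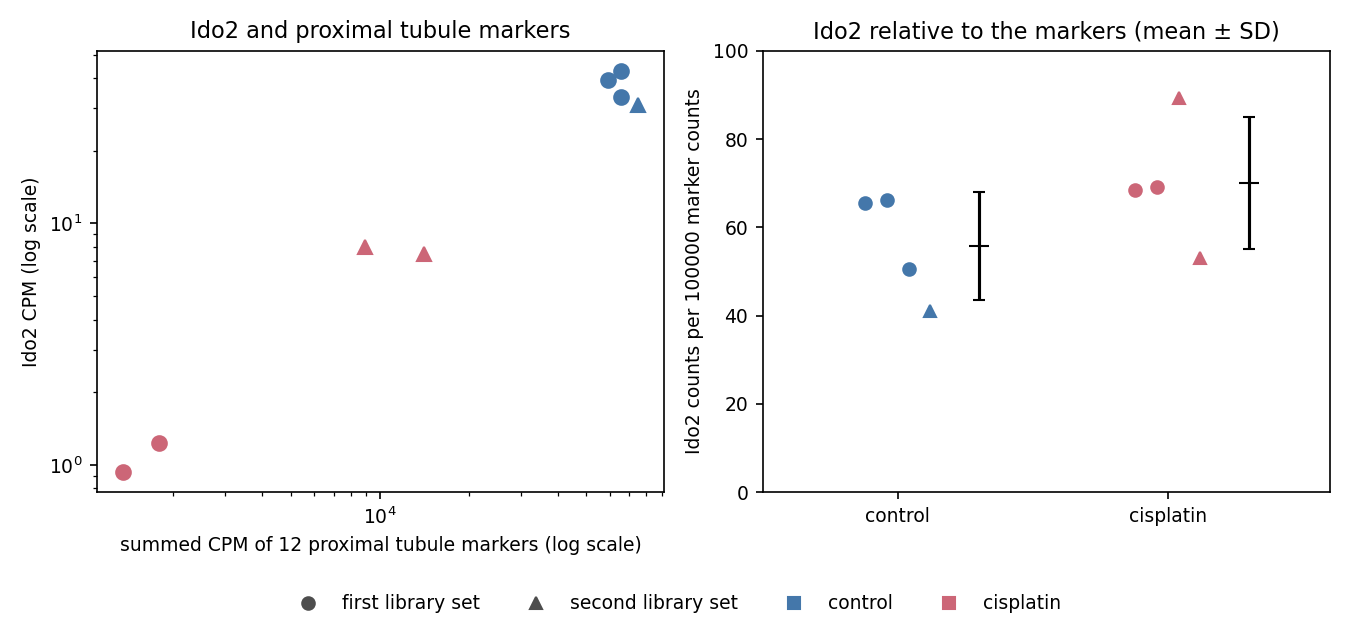
Left, Ido2 CPM against the summed CPM of 12 proximal tubule markers in each of 8 libraries, both on log axes. Right, Ido2 counts per 100000 marker counts with the mean ± SD of 4 libraries, where controls span 41.0 to 66.1 and cisplatin-treated kidneys 52.9 to 89.3.

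The tested genes whose log2 levels were most like those of Ido2 over the 8 libraries were Acsm3, Akr1c14 and Ces1f (Pearson r 0.9965, 0.9951 and 0.9933). Each was itself called down, and 581 tested genes had an r over 0.9 with Ido2, over libraries that share the difference between the groups and the library sets. After the group means were taken out, the most alike were Pip5kl1, Eaf1 and Acsm3 (r 0.99, 0.9867 and 0.9842), among 392 tested genes with an r over 0.9. Pip5kl1 and Eaf1 were called up, so the likeness is in the spread between libraries of a group.

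The other steps of the de novo route could be read only in part. Of its 12 listed genes, 3 were tested, and the rows of Ido1 and Tdo2, the other enzymes of that step, could not be used. Kyat3, a kynurenine aminotransferase of a side branch, was called down at a log2 fold change of -1.05 (edgeR adjusted p = 0.0189). Its relative Kyat1, at -0.83, did not reach the fold threshold. Among genes of the nicotinic acid route, salvage and uptake, 5 of 13 were tested, of which 4 were called down and 1 up. The largest fall was that of Slc22a13, a nicotinate transporter of the organic anion family (-2.09, edgeR adjusted p = 0.00799). Nadsyn1, which closes the nicotinic acid route, was at -1.60, Nmnat1 at -1.55 and Naprt at -1.29. Pnp, which cleaves nicotinamide riboside among other nucleosides, was up by 1.39 (edgeR adjusted p = 0.0286).

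Nadk was the most abundant of the 6 genes. Its level was 346, 318, 337 and 398 CPM in control libraries 1, 2, 3 and 5 and 352, 353, 411 and 446 CPM in cisplatin libraries 1, 3, 4 and 6. The groups overlapped, and the highest libraries in each group were those of the second set. The means were 350 ± 34.5 and 391 ± 46.2 CPM (SD, n = 4 each), and the log2 fold change was 0.16 (SE 0.15, edgeR adjusted p = 0.417). The 95% interval of the fold, 0.88 to 1.42, leaves out a doubling and a halving. With total-count scaling the log2 fold change was 0.72, with a 95% interval of 0.41 to 1.02 that includes a doubling (edgeR adjusted p = 0.00137). Within the sets the fold of means was 1.06 and 1.08. Without cisplatin 1 and 3 the log2 fold change was 0.30 (edgeR adjusted p = 0.101).

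Of the 11 genes listed for NAD phosphorylation and NADP cycling, 6 were tested, Nadk among them, with 1 called up and 3 down. G6pdx, the entry enzyme of the pentose phosphate pathway, which reduces NADP, was called up at 1.35 (edgeR adjusted p = 0.000449). Me1, Idh1 and Idh2, which also reduce NADP, were called down, with Me1 the lowest at -2.73 (edgeR adjusted p = 2.54e-05), Idh2 at -1.94 and Idh1 at -1.87. Noct, a phosphatase of NADP, was at 0.87 and was not called. Nnt, the mitochondrial transhydrogenase, had 0 counts in all 8 libraries, under a floor of 3 counts or 0.180 to 0.274 CPM by total count. The row of Nadk2, the mitochondrial NAD kinase, could not be used. Among the genes most like Nadk in level were Gm10335 and Fbxw4 (r 0.9857 and 0.9825 over 8 libraries). With group means taken out the most alike were Zc3h10, Prdx4 and Gm10335 (r 0.9913, 0.9893 and 0.9871). An r over 0.9 with Nadk was reached by 310 tested genes in level and 667 in deviation, so these names are not particular.

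Cd38, the main NAD glycohydrolase of many tissues and an enzyme of leukocytes and endothelium, varied widely within each group. Its level was 29.3, 35.2, 22.9 and 11.1 CPM in control libraries 1, 2, 3 and 5 and 34.2, 26.0, 10.8 and 22.9 CPM in cisplatin libraries 1, 3, 4 and 6. The lowest library of each group belonged to the second set, and the groups covered almost the same range. The means were 24.6 ± 10.3 and 23.5 ± 9.70 CPM (SD, n = 4 each), with a log2 fold change of -0.07 (SE 0.40, 95% interval -0.96 to 0.82, edgeR adjusted p = 0.905). The interval is the widest of the 5 genes that did not pass and includes folds from 0.516 to 1.77. Within the sets the fold of means was 1.03 and 1.52. The sign depended on the processing, with 0.51 under scaling by total count and -0.55 without cisplatin 1 and 3 (edgeR adjusted p = 0.349).

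Markers of cells that can carry CD38 were measured in the same libraries. Of the leukocyte list 3 of 5 markers were tested, 1 was called down (Ptprc, log2 fold change -1.44) and the summed level was 95.2 to 114 CPM in controls and 43.0 to 98.3 CPM with cisplatin. Of the endothelial list 4 of 8 were tested, none was called, and the summed level was 441 to 641 CPM and 242 to 588 CPM. Cisplatin 4, the cisplatin-treated library with the lowest Cd38, also had the lowest leukocyte and endothelial sums of all 8. Lists of single leukocyte classes went in both directions. Neutrophil markers were called up in 4 of 5 tested. Among macrophage and monocyte markers Itgam was called up and Ccr2 down out of 5 tested, with the summed level at 59.9 to 129 CPM in controls and 44.4 to 128 CPM with cisplatin. Of the B and plasma cell list Cd79a was called up out of 4 tested, and of the T and NK cell list Cd8a and Nkg7 were called down out of 3. The part of these cells in the Cd38 values was not tested. Pik3cg, Calcrl and Gm13803 were most like Cd38 in level (r 0.9614, 0.9597 and 0.9588), and Gm35315, Gm13803 and Gsdme in deviation from the group means (r 0.9907, 0.9855 and 0.985). An r over 0.9 with Cd38 was reached by 37 tested genes in level and 181 in deviation.

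Bst1 moved differently from its neighbour. It rose from 14.6 ± 3.81 to 64.1 ± 21.4 CPM (SD, n = 4 each; log2 fold change 2.13, SE 0.28, edgeR adjusted p = 0.000248). Bst1 belongs to the NAD panel, which was drawn from these same samples. Some markers of myeloid cells, which also carry BST1, were higher with cisplatin as well. Among macrophage and monocyte markers Itgam was 8.42-fold higher, Ccr2 was called down, and C1qb, Lyz2 and Fcgr1 were not called. The summed level of the neutrophil markers was 4.07 to 5.82 CPM in controls, with Mpo at 0 in all libraries. It was 13.4, 17.8, 20.2 and 25.0 CPM in cisplatin libraries 1, 3, 4 and 6. Bst1 had 2040, 1188, 770 and 528 counts in the same cisplatin libraries, in the opposite order. These are raw counts, not CPM, and the total counts of the libraries fell in the same order, from 16701599 to 10953338. The part of myeloid cells in the rise of Bst1 was not tested. The ratio of the genes' counts within a library does not depend on scaling. It was 0.498, 0.540, 0.424 and 1.38 in control libraries 1, 2, 3 and 5, and 2.72, 2.51, 5.24 and 1.83 in cisplatin libraries 1, 3, 4 and 6. The ratio was higher in every cisplatin-treated library than in every control, and control 5 was the only control with more Bst1 than Cd38 counts. Bst1 alone also separated the groups, as did 46.3% of all genes tested, in either direction. The counts are not divided by gene length. On the log2 scale the mean ratios were -0.67 ± 0.77 and 1.51 ± 0.64 (SD, n = 4 each), a 4.52-fold difference. The two-sided exact permutation p was 0.0286, and 0.0286 after Benjamini-Hochberg adjustment over the 2 ratios computed. This is the smallest value possible. The ratios were added after the values were seen, and the adjustment does not cover that choice. The log2 difference was 2.43 within the first set, 1.17 within the second and 2.30 without cisplatin 1 and 3.

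**Figure D3:**
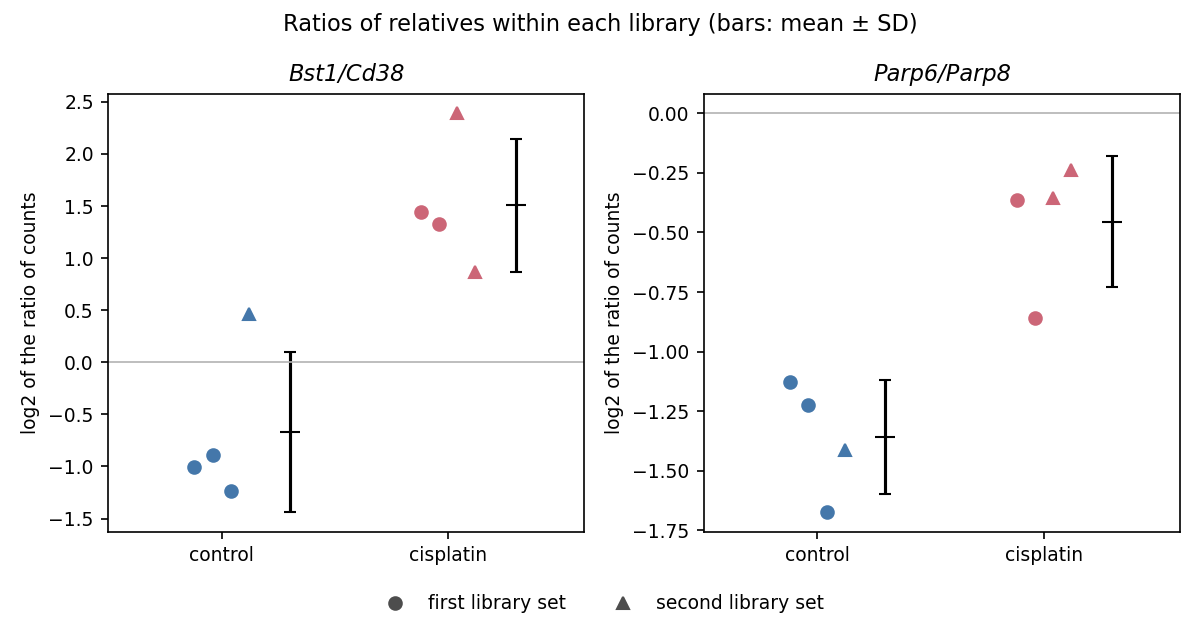
Log2 ratio of counts within each library for Bst1 to Cd38 and Parp6 to Parp8, with the mean ± SD of 4 libraries per group. Both ratios are higher in all 4 cisplatin-treated libraries than in all 4 controls.

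Parp8 is the closest of the 6 genes to Parp6, and both encode enzymes that transfer single ADP-ribose units. Parp8 was at 52.1, 63.0, 69.6 and 48.8 CPM in control libraries 1, 2, 3 and 5 and at 56.2, 74.4, 43.9 and 39.0 CPM in cisplatin libraries 1, 3, 4 and 6. The highest and the lowest values were both in cisplatin-treated kidneys, in the first and the second set. The means were 58.4 ± 9.64 and 53.4 ± 15.8 CPM (SD, n = 4 each), with a log2 fold change of -0.13 (SE 0.22, 95% interval -0.62 to 0.37, edgeR adjusted p = 0.660). Within the sets the fold of means was 1.06 and 0.849. The log2 fold change was 0.45 with total-count scaling and -0.49 without cisplatin 1 and 3 (edgeR adjusted p = 0.0565).

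Parp6 had 22.7 ± 3.62 CPM in controls and 38.0 ± 5.17 CPM with cisplatin (SD, n = 4 each; log2 fold change 0.74, edgeR adjusted p = 0.00644), below the fold threshold. The ratio of Parp6 to Parp8 counts was 0.457, 0.428, 0.314 and 0.375 in control libraries 1, 2, 3 and 5, and 0.778, 0.551, 0.781 and 0.848 in cisplatin libraries 1, 3, 4 and 6. The groups did not overlap, and Parp8 had more counts than Parp6 in all 8 libraries. These counts are not divided by gene length and do not rank the levels of the genes. Parp6 alone also separated the groups, as did 46.3% of all genes tested, in either direction. How often ratios of gene pairs do so was not counted. The log2 means of the ratio were -1.36 ± 0.24 and -0.45 ± 0.28 (SD, n = 4 each), a 1.87-fold difference (two-sided exact permutation p = 0.0286, adjusted p 0.0286). This ratio, too, was added after the values were seen, and the adjustment does not cover that choice. The difference was 0.73 on the log2 scale within the first set, 1.12 within the second and 1.06 without cisplatin 1 and 3. Parp6, too, belongs to the NAD panel. Ttll10, Gpatch8 and Pign were most like Parp8 in level (r 0.9808, 0.978 and 0.977), and Hp1bp3, Ttll10 and Ogt in deviation from the group means (r 0.9833, 0.9824 and 0.9812). An r over 0.9 with Parp8 was reached by 54 tested genes in level and 209 in deviation.

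Parp16 encodes a membrane-anchored enzyme linked to the unfolded protein response. It was at 29.9, 22.9, 31.2 and 32.2 CPM in control libraries 1, 2, 3 and 5 and at 23.6, 24.9, 41.9 and 40.3 CPM in cisplatin libraries 1, 3, 4 and 6. The second-set cisplatin libraries were above all controls, and the first-set ones were below all controls but library 2. The means were 29.1 ± 4.21 and 32.7 ± 9.79 CPM (SD, n = 4 each), with a log2 fold change of 0.17 (SE 0.23, 95% interval -0.35 to 0.69, edgeR adjusted p = 0.579). Within the sets the fold of means was 0.865 and 1.28. Without cisplatin 1 and 3 the log2 fold change was 0.51, with an edgeR adjusted p of 0.0329 but under the fold threshold. That estimate mixes treatment with library set. The second set was higher than the first by 0.53 on the log2 scale in a fit with the set as a covariate. With the first set alone the log2 fold change was -0.27. Nabp2, Rpl36-ps12 and Chchd5 were most like Parp16 in level (r 0.9738, 0.9625 and 0.9453). In deviation from the group means they were 0610009E02Rik, C730034F03Rik and Slc3a2 (r 0.9911, 0.9889 and 0.9883). An r over 0.9 with Parp16 was reached by 41 tested genes in level and 371 in deviation.

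Tnks had the largest estimate among the 5 genes that did not pass. Its level was 102, 105, 89.3 and 61.6 CPM in control libraries 1, 2, 3 and 5 and 80.0, 89.7, 51.8 and 53.4 CPM in cisplatin libraries 1, 3, 4 and 6. The 3 second-set libraries were the lowest, and among them both cisplatin-treated ones were below the control. The means were 89.5 ± 19.8 and 68.7 ± 19.0 CPM (SD, n = 4 each), with a log2 fold change of -0.38 (SE 0.24, 95% interval -0.91 to 0.15, edgeR adjusted p = 0.208). Within the sets the fold of means was 0.859 and 0.853. Without cisplatin 1 and 3 the log2 fold change was -0.76, with an edgeR adjusted p of 0.0256 but under the fold threshold. That estimate mixes treatment with library set. The second set was lower than the first by -0.69 on the log2 scale in a fit with the set as a covariate. With total-count scaling the log2 fold change was 0.19.

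Of 11 listed partners and targets of the tankyrases, 7 were tested and none was called up or down. Numa1, a spindle protein, was at -0.74 and Amot, an angiomotin, at -0.80 on the log2 scale (edgeR adjusted p = 0.0132 and 0.0117), both under the fold threshold. Amotl1, a relative of Amot, was at 0.61 (edgeR adjusted p = 0.0332), also under it, and Axin2, a feedback gene of Wnt signalling, was at 0.38 (edgeR adjusted p = 0.408). The rows of Tnks2 and Axin1 could not be used. Mid2, Zbtb1 and Gosr1 were most like Tnks in level (r 0.9885, 0.9823 and 0.9805), and Acap2, Gm9118 and Robo1 in deviation from the group means (r 0.9918, 0.9892 and 0.9865). An r over 0.9 with Tnks was reached by 274 tested genes in level and 513 in deviation.

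Of the 15 listed PARP family genes 7 were tested, and only Parp10 was called, 2.64-fold higher with cisplatin (SE 0.24 on the log2 scale, edgeR adjusted p = 0.00100). Parp3, which acts in DNA break repair, was at 0.60 (edgeR adjusted p = 0.00442), and Parp14 at 0.70 (edgeR adjusted p = 0.188). All 4 tested members of the family outside the 6 genes had estimates above 0, and each belongs to the NAD panel. Parp8 and Tnks had estimates below 0, which turned positive with total-count scaling. The row of Parp1, the main poly-ADP-ribose polymerase, could not be used. Among enzymes that remove ADP-ribose, 3 of 10 were tested. Macrod1 was called down (-1.69, edgeR adjusted p = 0.00415), and Adprh was at 0.99 and Nudt5 at -0.13. Of the sirtuins, deacylases that also use NAD, 6 of 7 were tested and Sirt3 was called down (-1.88, edgeR adjusted p = 0.000424). Of the clearance genes 5 of 6 were tested. Nnmt, which methylates nicotinamide, and Aox1, which oxidizes the product, were called up (2.75 and 1.42), and the ectoenzyme Enpp1 was called down (-1.33).

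Over all lists, 73 NAD gene names other than the 6 were listed, and 33 were tested. Of these 6 were called up, 13 down and 14 were not called, with a median log2 fold change of -0.54 beside 0.08 for all genes tested. With total-count scaling 13 were called up and 9 down, and in the first library set alone 3 were called up. Leaving out the panel, 4 of 23 were called up and 8 down, or 52.2%, beside 34.9% of all genes tested. Of the 10 panel genes themselves 2 were called up and 5 down, the lowest being Slc22a12, a urate transporter, at -4.01 and then Qdpr, which recycles a pterin cofactor with NADH, at -2.35. For the 6 genes followed here the count was 0 up and 1 down, and a share of 1 in 6 is near the 15.7% of all genes that were called down.

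**Figure D4:**
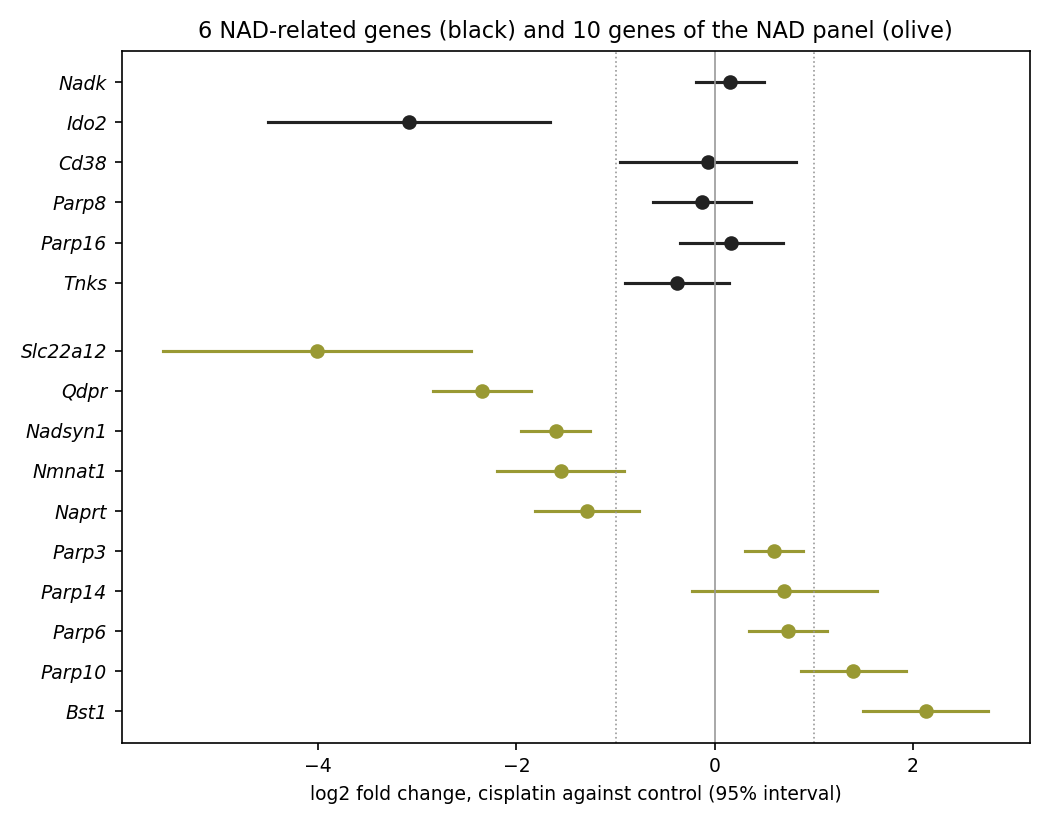
Log2 fold changes with 95% intervals, cisplatin against control (n = 4 each), for the 6 genes in black and the 10 genes of the NAD panel in olive. The dotted lines mark the fold threshold at -1 and 1, and of the black points only Ido2, at -3.08, has an interval that lies beyond it.

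Compared per length, as RPKM, which divides CPM by the gene length in kilobases, from the length given in the table, Nadk led in both groups, at 93.4 ± 9.22 in controls and 104 ± 12.3 with cisplatin (SD, n = 4 each). Ido2 came next in controls, at 10.1 ± 1.51 RPKM. Parp16, Parp8, Cd38 and Tnks followed at 7.48, 6.57, 6.33 and 6.01 RPKM. Among these last 4 every neighbouring pair overlapped in range, and the lowest control value of Ido2, 8.48, was just above the highest of Parp16, 8.28. With cisplatin the order was Nadk, Parp16 (8.41), Cd38 (6.03), Parp8 (6.01), Tnks (4.62) and Ido2 (1.21), where the ranges of Nadk and of Ido2 did not overlap their neighbours'. Ido2 went from above 65.8% of the tested genes to above 22.4%, whereas Nadk stayed above 93.2% and then 95.2%.

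The 6 genes differed between the library sets to varying degrees. In a fit with the set as a covariate, the second set differed from the first by log2 values of 0.27 for Nadk, 1.37 for Ido2, -1.06 for Cd38, -0.52 for Parp8, 0.53 for Parp16 and -0.69 for Tnks. The median absolute value over all genes was 0.45, above the value of Nadk and close to those of Parp8 and Parp16. The treatment estimates of the same fit were 0.09, 0.23, 0.03, 0.01 and 0.22 in absolute size for Nadk, Cd38, Parp8, Parp16 and Tnks. Each was smaller than the set difference of that gene, but the sets come from these same counts. For Ido2 the treatment estimate was larger than the set difference, at 3.90. How often either held over all genes was not counted. Nadk and Parp16 were higher in the second set, and Cd38, Parp8 and Tnks lower. Over the 8 libraries the log2 levels of Nadk and Parp16 had a Pearson r of 0.83, and those of Nadk and Tnks an r of -0.95, as a description of libraries that share these sets.

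**Figure D5:**
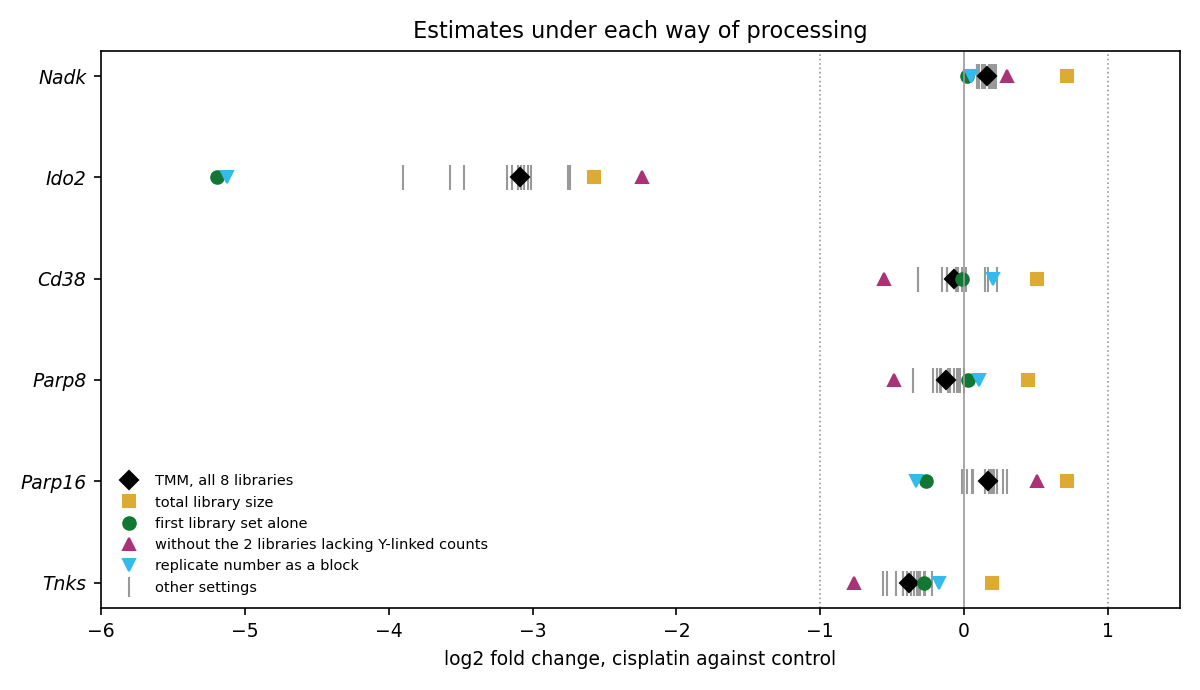
Log2 fold change of each of the 6 genes under 18 alternative ways of processing, with the estimate from all 8 libraries as a black diamond. Ido2 lies between -5.19 and -2.24 throughout, and the other 5 genes stay between the dotted fold thresholds at -1 and 1.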

How the data were processed

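Kidney poly(A) RNA from 4 control and 4 cisplatin-treated mice was sequenced. The authors aligned reads to GRCm38 with HISAT2, as the methods state, and deposited raw counts per gene, with fastp also listed in the submitters' processing notes. The counting tool and annotation release were not given in the sources used here. The labels and the methods name library kits of different makers. Of 53715 rows, 35880 held 8 values and were used. The other 17835 held 10 values, and the 2 unnamed columns of values were not used.

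Tests were run with edgeR 4.0.16 under R 4.3.3 (default expression filter, TMM, quasi-likelihood test, Benjamini-Hochberg adjustment). The 6 genes, the lists and the alternatives were chosen with earlier results of these data known. Named genes were the 6 members, their relatives in the same step, the 10 genes of the study's NAD panel, the extreme called genes of each list and the 3 most alike genes by Pearson r of log2(CPM + 1); other genes of the lists were named after their values were seen. A gene that this rule also names is not reported here. Alternatives were DESeq2 1.42.0, other scalings and filters, left-out libraries, the library set and the replicate number as a block. Numbers 1 and 3 occur in both groups, but the mice differ. P-values measure the spread between these mice. Floors of 3 counts cover counting error only. The scripts were tested on simulated data.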

Additional observations from a re-analysis of the deposited data

How the results depend on the processing

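Ido2 was called down in all 18 alternatives. Its log2 fold changes ran from -5.19 (first library set alone) to -2.24 (without the cisplatin libraries that lack Y-linked counts). The edgeR or DESeq2 adjusted p ran from 1.41e-09 to 0.00894. The lowest came from the block on replicate number, whose limits are given below, and the highest without control 1. Leaving out each library in turn gave -3.58 to -2.74. The other 5 genes were called in none. Signs turned in 13 of 108 values, and the cause was not tested. Cd38 was 0.51 with total-count scaling and 0.23 with a covariate for the library set. It ran from -0.32 to 0.17 with each library left out. Parp16 was -0.27 in the first set alone and -0.011 with the covariate. Parp8 was 0.030 in the first set alone and 0.45 with total-count scaling, under which Tnks was 0.19. That scaling moved the median of all genes to 0.64. Relative to that median Nadk was at 0.07, Ido2 at -3.22, Cd38 at -0.14, Parp8 at -0.20, Parp16 at 0.07 and Tnks at -0.45. Under it Nadk and Parp16, both 0.72, had adjusted p of 0.00137 and 0.0127. It gave 3174 genes up and 803 down, and 13 other NAD genes up and 9 down in place of 6 and 13. The first set alone gave 3 up. Requiring 10 counts in every library gave 1101 genes up among fewer genes tested. The ratio differences, whose alternatives were chosen after seeing the data, ran from 1.88 to 2.55 (Bst1 to Cd38) and 0.80 to 1.04 (Parp6 to Parp8) with each library left out.

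With the replicate number as a block, Ido2 was -5.13, Cd38 0.20, Parp8 0.10 and Parp16 -0.34, and 1710 genes were called up and 1404 down. Only numbers 1 and 3 are shared, so these estimates rest on controls 1 and 3 and cisplatin 1 and 3, all of the first set. Deviations of same-numbered libraries correlated at r = 0.25 and 0.28, and nothing in the labels pairs the mice. The block changed no call among the 6 genes, but it is no check on all 8 libraries.

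With 4 libraries per group, the 95% intervals of Cd38, Parp8, Parp16 and Tnks still included a 1.5-fold difference in at least 1 direction, and that of Nadk did not. With total-count scaling, with no filter and without the cisplatin libraries that lack Y-linked counts, the interval of Nadk included it too, with upper log2 bounds of 1.02, 0.59 and 0.63.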
